A study of Homo sapiens with 10 samples.

Results

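The 10 genes SCD, SCD5, FADS1, FADS2, ELOVL1, ELOVL5, ELOVL6, HSD17B12, TECR and HACD3 encode enzymes that put double bonds into fatty acids or lengthen them. They were taken by gene symbol from the 35606 gene IDs of each deposited table, and all 10 were listed in both tables and passed the filter on low values (a mean over the table's samples of 1 CPM or more). RNA-seq was available from QGP-1, an established line of human neuroendocrine tumor cells from the pancreas, in 5 groups of 2 samples. The knockdown table held wild-type cells with the control guide sgNC and PIKFYVE knockdown cells with the guide sgPIKFYVE-1; both lines carry CRISPR interference (CRISPRi), in which a nuclease-dead Cas9 joined to a KRAB repressor blocks transcription, and each is a selected lentiviral line with 1 guide. The drug table held wild-type QGP-1 cells given DMSO, 1 µM apilimod, an inhibitor of the lipid kinase PIKfyve, or 100 nM Torin-1, an inhibitor of the kinase mTOR. The sample labels give 24 h for both drugs. The legends of the study name a shorter exposure for RNA-seq. Nothing states that the 2 samples of a group came from separate cultures, so p-values measure the spread between these samples, which may be technical.

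Most fatty acid made by a cell leaves fatty acid synthase as palmitate. It is then lengthened in the endoplasmic reticulum by a cycle of condensation, reduction, dehydration and reduction, in which ELOVL proteins carry out the condensation, HSD17B12 the first reduction, HACD proteins the dehydration and TECR the last reduction. Double bonds come from desaturases that draw electrons from cytochrome b5: SCD and SCD5 make monounsaturated fatty acids such as oleate, and FADS2 and FADS1 act in turn on dietary polyunsaturated fatty acids to make arachidonate and related lipids. SREBP transcription factors, which bind sterol regulatory elements together with the CCAAT-binding factor NF-Y, are known to drive many of these genes, and mTOR signalling is known to raise SREBP activity.

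SCD changed most, SCD5, its paralog, passed no test with all samples kept, ELOVL6 fell with Torin-1, and ELOVL5 rose with it. The promoters of these 4 members are shown because they carry the contrasts described below. Each is the RefSeq window from 250 bases before to 50 bases after a gene start, on GRCh38.p14, read 5′ to 3′ on the strand of the gene. Capitals mark CCAAT and its reverse complement ATTGG.
SCD, chr10:100346983-100347282, plus strand: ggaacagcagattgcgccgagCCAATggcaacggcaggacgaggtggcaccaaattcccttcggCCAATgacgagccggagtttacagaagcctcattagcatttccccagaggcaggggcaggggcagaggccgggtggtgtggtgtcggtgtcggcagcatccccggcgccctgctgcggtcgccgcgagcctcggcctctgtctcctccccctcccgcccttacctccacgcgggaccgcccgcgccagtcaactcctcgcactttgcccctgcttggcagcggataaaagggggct
SCD5, chr4:82798747-82799046, minus strand: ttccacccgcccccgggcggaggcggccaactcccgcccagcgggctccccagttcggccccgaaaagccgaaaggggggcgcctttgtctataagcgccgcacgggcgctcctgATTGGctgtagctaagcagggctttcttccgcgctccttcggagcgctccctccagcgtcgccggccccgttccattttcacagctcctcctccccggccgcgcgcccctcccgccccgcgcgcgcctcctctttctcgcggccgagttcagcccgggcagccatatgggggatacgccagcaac
ELOVL6, chr4:110198566-110198865, minus strand: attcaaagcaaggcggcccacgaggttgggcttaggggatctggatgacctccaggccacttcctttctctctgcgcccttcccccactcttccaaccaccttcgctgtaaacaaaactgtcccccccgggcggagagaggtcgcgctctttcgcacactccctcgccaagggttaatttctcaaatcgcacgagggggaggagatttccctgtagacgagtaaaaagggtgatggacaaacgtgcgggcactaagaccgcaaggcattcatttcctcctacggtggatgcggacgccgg
ELOVL5, chr6:53348901-53349200, minus strand: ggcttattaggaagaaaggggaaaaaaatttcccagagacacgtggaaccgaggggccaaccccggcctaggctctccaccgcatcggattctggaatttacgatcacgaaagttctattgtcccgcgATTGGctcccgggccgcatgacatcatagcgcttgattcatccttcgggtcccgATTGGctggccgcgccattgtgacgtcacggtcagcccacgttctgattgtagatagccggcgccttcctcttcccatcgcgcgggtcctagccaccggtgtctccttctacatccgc
The table held such a window for 9 of the 10 members, and HSD17B12 had no entry. FADS2, HACD3 and TECR had 2 windows each, which overlap for FADS2 and TECR, so the 9 genes had 12 windows. CCAAT or ATTGG stood in 8 of the 12, from 7 genes, and in 34.6% of all 35116 windows. The GC box GGGCGG, searched on both strands like all motifs, stood in 10 of the 12, from 8 genes, and in 45.0% of all windows. The E-box CACGTG was present in 1 of the 12, at ELOVL5, and in 7.26% of all windows. No member's window held the sterol regulatory element TCACNCCAC, present in 1.13% of all windows, or the LXR direct repeat of AGGTCA with 4 bases between, present in 0.0199%. In the 4 windows printed, no CCAAT or ATTGG overlapped another motif. SCD5 thus carried the pentamer once and SCD carried it in 2 places, while ELOVL6 and FADS1 had none. These matches describe letters within 300 bases and not binding.

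PIKFYVE itself was at 101 and 97.5 CPM with sgNC and at 10.9 and 12.5 CPM with sgPIKFYVE-1, a mean of 11.8% of the control, and between 69.9 and 83.7 CPM in the drug table. The samples held an estimated 9.30 to 13.6 M reads, and 3 reads were worth 0.227 to 0.329 CPM, a floor for counting error alone. Of 12 neuroendocrine markers, 11 had a mean of at least 1 CPM in every group, with a summed level between 7037 and 10298 CPM; the 12th, NEUROD1, reached at most 0.700 CPM. That sum was lower with sgPIKFYVE-1 (7304 to 7488 CPM) than with sgNC (8457 to 8813 CPM), lower with apilimod (7037 to 7197 CPM) and higher with Torin-1 (10038 to 10298 CPM) than with DMSO (8098 to 8121 CPM), and its part in the results was not tested. All 5 epithelial markers were present in every group. The summed markers of adipocytes and of hepatocytes, which are rich in these enzymes, stayed at or under 0.836 and 1.88 CPM. Fibroblast and endothelial sums stayed at or under 10.4 and 4.72 CPM. The leukocyte sum was 17.2 to 19.2 CPM with sgPIKFYVE-1 against 7.30 to 7.72 CPM with sgNC, mostly from LYZ (at most 18.4 CPM), with CD3E at 0 and PTPRC at or under 0.548 CPM.

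Most of the 10 genes were higher after loss or inhibition of PIKfyve, and most were lower with Torin-1. With sgPIKFYVE-1, 9 of 10 rose and SCD5 did not pass, where 21.6% of the 13591 genes tested rose and 20.9% fell. Apilimod raised 7 of 10, and SCD5, TECR and HACD3 did not pass, where 5.75% of 13520 genes rose and 2.79% fell. Torin-1 lowered 7 of 10 and raised ELOVL5, with SCD5 and HSD17B12 not passing, where 16.6% of genes rose and 21.8% fell. The median log2 fold change of the members was 0.40 with sgPIKFYVE-1, 1.01 with apilimod and -0.56 with Torin-1, against -0.0042, -0.0057 and -0.012 over all genes tested. Both drugs were set against the same DMSO samples. All fold changes are on log2(CPM + 1), and calls are adjusted p-values under 0.05 from limma after Benjamini-Hochberg adjustment across the whole table.

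**Figure D1:**
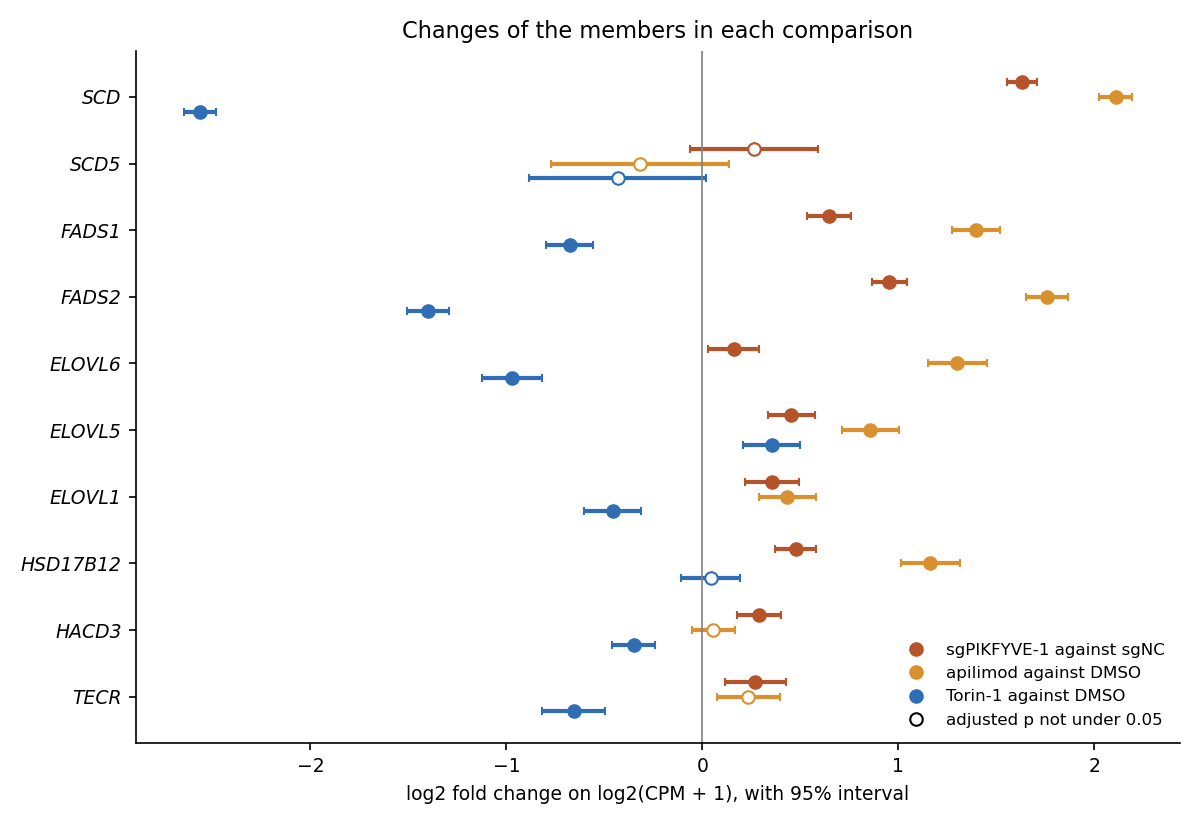
Log2 fold change on log2(CPM + 1) of each member with its 95% interval from limma (horizontal axis), for sgPIKFYVE-1 against sgNC, apilimod against DMSO and Torin-1 against DMSO, with filled points for adjusted p under 0.05. SCD runs from -2.56 with Torin-1 to 2.11 with apilimod, the 3 SCD5 intervals cross 0, and ELOVL5 lies above 0 in all 3 comparisons.

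**Figure D2:**
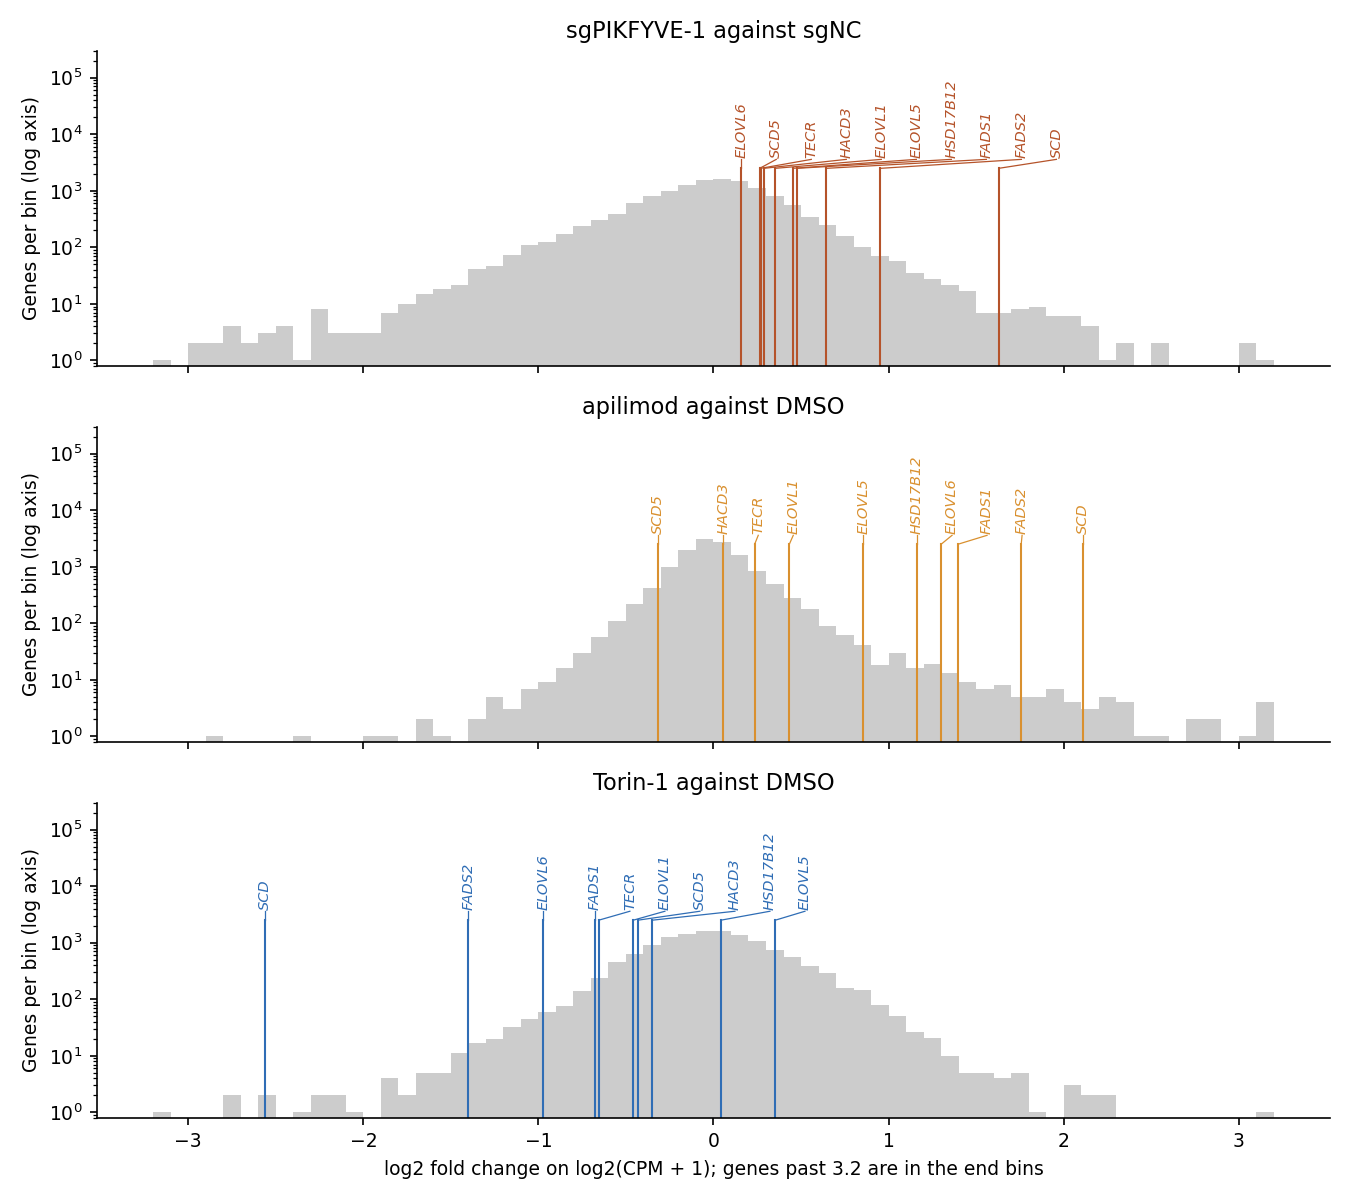
Number of genes (vertical axis, log scale) per bin of 0.1 in log2 fold change (horizontal axis) for all genes tested, in grey, with the 10 members as labelled lines, in each comparison with a control. SCD ranks 47 from the top of 13591 genes with sgPIKFYVE-1, 23 from the top of 13520 with apilimod and 4 from the bottom with Torin-1, whereas HACD3 with apilimod and HSD17B12 with Torin-1 sit in the middle.

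SCD (ENSG00000099194.6, chr10:100347124-100364834), the main stearoyl-CoA desaturase, was at 957 and 966 CPM with sgNC and at 2993 and 2959 CPM with sgPIKFYVE-1. In the drug table it was at 851 and 833 CPM with DMSO, 3647 and 3627 CPM with apilimod, and 144 and 139 CPM with Torin-1. Replicates thus differed by a few percent while the groups were 3.10-fold and 4.32-fold above their controls or at 16.8% of it. The log2 fold changes were 1.63 (SE 0.037, adjusted p = 5.02e-17 by limma), 2.11 (SE 0.039, adjusted p = 1.40e-13) and -2.56 (SE 0.039, adjusted p = 1.94e-14). These levels are shares of the RNA in bulk libraries, so fewer cells that express a gene and less RNA per cell cannot be told apart.

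SCD5 (ENSG00000145284.12, chr4:82629539-82798857), the second human stearoyl-CoA desaturase, known mainly from brain and pancreas, did not follow SCD. It was at 10.2 and 11.2 CPM with sgNC and 11.8 and 14.4 CPM with sgPIKFYVE-1, a log2 difference of 0.26 (95% interval -0.063 to 0.59, adjusted p = 0.188 by limma). With DMSO it was at 8.94 and 7.19 CPM, with apilimod at 5.91 and 6.57 CPM, and with Torin-1 at 4.36 and 7.33 CPM. The Torin-1 and DMSO samples overlapped, and the apilimod samples lay below both DMSO samples. The log2 differences were -0.32 with apilimod (95% interval -0.77 to 0.13, adjusted p = 0.435) and -0.43 with Torin-1 (95% interval -0.88 to 0.020, adjusted p = 0.122). All 3 values moved with single samples. The first was 0.13 without sgPIKFYVE-1 sample 2 and 0.40 without sample 1, and the apilimod value was -0.18 without DMSO sample 1 and -0.46 without DMSO sample 2; none of these passed. The Torin-1 value was -0.11 without Torin-1 sample 1 and -0.75 without sample 2, where it passed (adjusted p = 0.0171 by limma). The intervals exclude changes of SCD5 as large as those of SCD in the same samples. The ratio of SCD to SCD5 within a sample was 94.0 and 86.3 with sgNC, 254 and 206 with sgPIKFYVE-1, 95.1 and 116 with DMSO, 617 and 552 with apilimod, and 33.0 and 19.0 with Torin-1. This ratio of read shares, not corrected for length, separated every treated group from its control, although 2 samples against 2 cannot give a two-sided exact permutation p under 0.333.

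**Figure D3:**
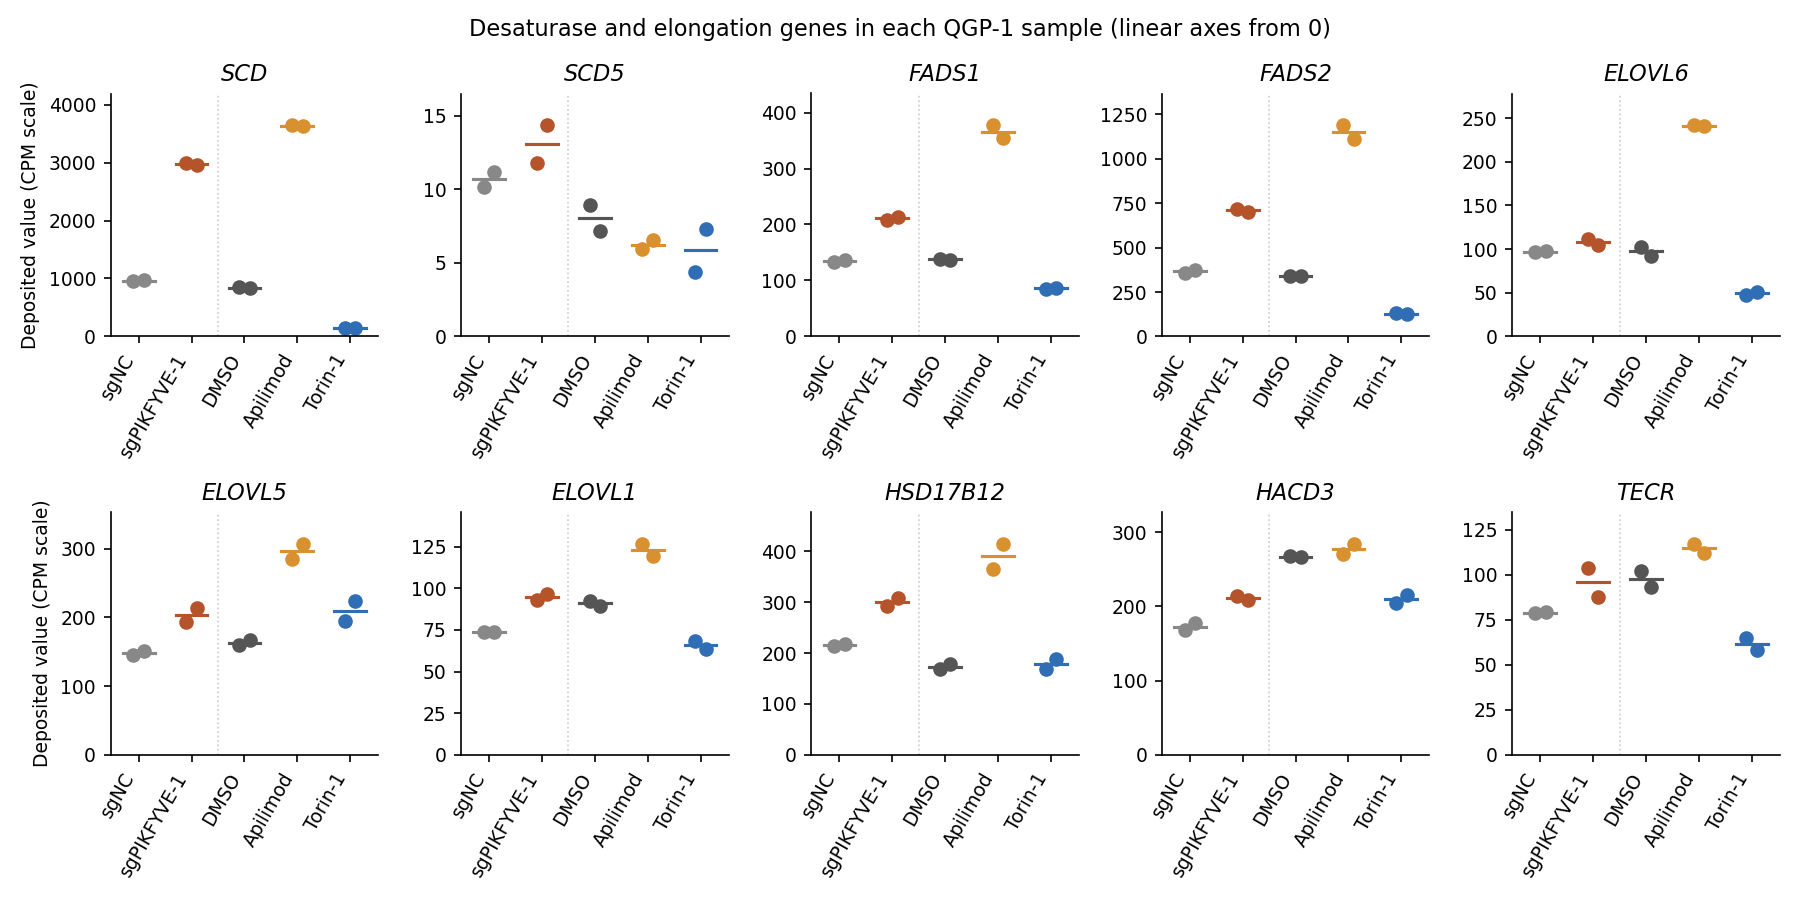
Deposited value on the CPM scale (vertical axes, linear from 0, scaled per gene) of each member in the 10 samples, with a point per sample and a line at the mean of each group; a dotted line parts the knockdown table from the drug table. The 2 samples of a group lie close together for SCD, FADS1 and FADS2, and the Torin-1 and DMSO samples overlap for SCD5 and HSD17B12.

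FADS2 (ENSG00000134824.14, chr11:61792980-61867354), which performs the first desaturation of the polyunsaturated pathway, had the second largest change of the members in each comparison with a control. It was at 360 and 373 CPM with sgNC and 720 and 702 CPM with sgPIKFYVE-1, a log2 fold change of 0.95 (SE 0.043, adjusted p = 1.81e-12 by limma). With DMSO it was at 338 and 340 CPM, with apilimod at 1189 and 1110 CPM, and with Torin-1 at 131 and 125 CPM. Means were 3.39-fold above DMSO with apilimod (log2 1.76, adjusted p = 8.45e-12) and at 37.7% of it with Torin-1 (log2 -1.40, adjusted p = 1.68e-10).

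FADS1 (ENSG00000149485.18, chr11:61799625-61829318), the later desaturase of that pathway, moved the same way by less. Its values were 133 and 136 CPM with sgNC and 208 and 214 CPM with sgPIKFYVE-1, a log2 fold change of 0.65 (SE 0.053, adjusted p = 1.11e-08 by limma). With DMSO it was at 139 and 137 CPM, with apilimod at 377 and 354 CPM (log2 fold change 1.40, adjusted p = 4.56e-10), and with Torin-1 at 85.4 and 86.7 CPM (log2 fold change -0.68, adjusted p = 7.31e-07). The balance between the 2 genes changed accordingly. The ratio of FADS2 to FADS1 was 2.71 and 2.74 with sgNC and 3.46 and 3.28 with sgPIKFYVE-1. In the drug table it was 2.43 and 2.47 with DMSO, 3.15 and 3.14 with apilimod, and 1.53 and 1.44 with Torin-1. No treated sample overlapped its controls in this ratio, with the same smallest exact permutation p of 0.333. FADS1 and FADS2 lie on opposite strands and share 490 exonic bases in GENCODE 29, which is 4.79% of the exonic bases of FADS1 and 4.44% of those of FADS2; whether the counting used strand is not given in the sources used here, so reads from those bases cannot be assigned with certainty.

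Over the 4 desaturases together, the summed level was 1459 and 1487 CPM with sgNC, 3932 and 3890 CPM with sgPIKFYVE-1, 1337 and 1318 CPM with DMSO, 5220 and 5097 CPM with apilimod, and 365 and 358 CPM with Torin-1. SCD held 65.6% and 65.0% of that sum with sgNC and 76.1% in both sgPIKFYVE-1 samples. Its share was 63.6% and 63.2% with DMSO, 69.9% and 71.2% with apilimod, and 39.4% and 38.9% with Torin-1. The composition of desaturase reads therefore shifted toward SCD in the PIKfyve groups and away from it with Torin-1. By contrast, the summed level of the 6 elongation genes was 778 and 796 CPM with sgNC, 1009 and 1020 CPM with sgPIKFYVE-1, 892 and 887 CPM with DMSO, 1407 and 1479 CPM with apilimod, and 747 and 801 CPM with Torin-1. The elongation genes as a sum thus spanned a narrower range than the desaturases.

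**Figure D4:**
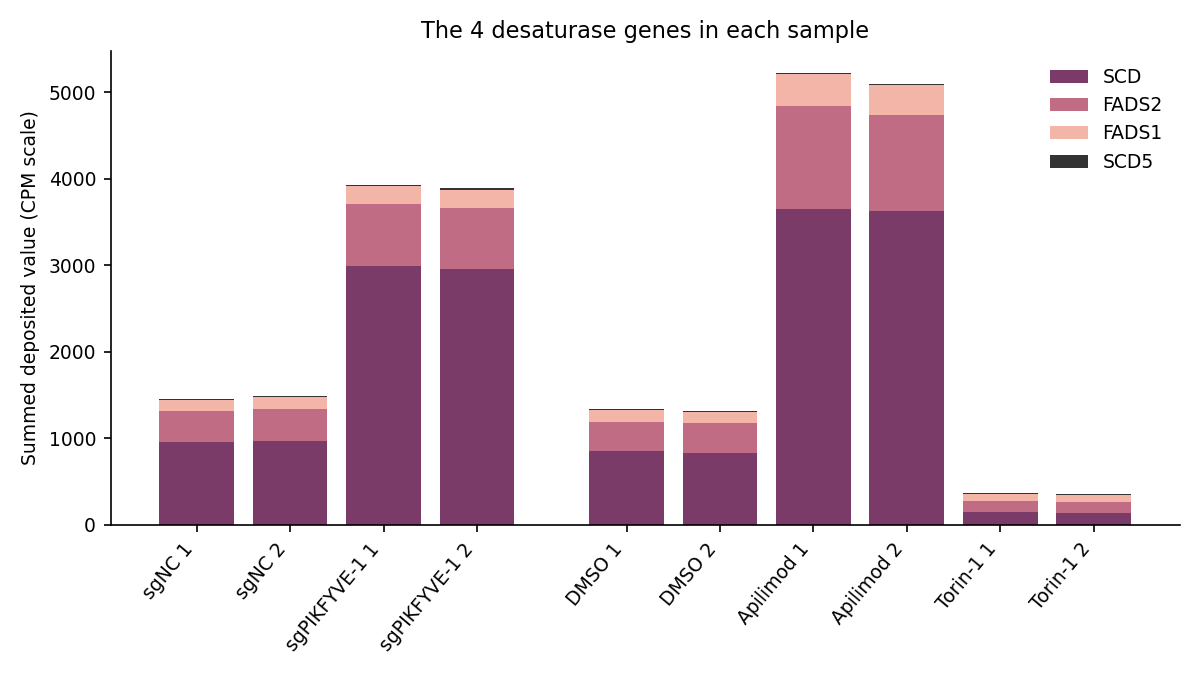
Summed deposited value on the CPM scale (vertical axis from 0) of SCD, FADS2, FADS1 and SCD5 in each of the 10 samples, stacked by gene; the values are shares of reads and not corrected for transcript length. The apilimod bars reach 5220 and 5097 CPM and the Torin-1 bars 365 and 358 CPM, and the SCD section shrinks from 63.6% and 63.2% with DMSO to 39.4% and 38.9% with Torin-1.

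ELOVL6 (ENSG00000170522.9, chr4:110045846-110199199), which lengthens palmitate to stearate and so supplies the substrate of SCD, responded strongly to both drugs and weakly to the knockdown. With DMSO it was at 102 and 92.5 CPM, with apilimod at 242 and 240 CPM (log2 fold change 1.30, SE 0.071, adjusted p = 1.42e-08 by limma), and with Torin-1 at 47.0 and 51.4 CPM (log2 fold change -0.97, adjusted p = 1.91e-07). With sgNC it was at 96.3 and 97.5 CPM and with sgPIKFYVE-1 at 112 and 105 CPM. That log2 fold change of 0.16 (SE 0.063) passed narrowly, with an adjusted p of 0.0485 by limma. The call was lost with a pseudocount of 0.1 (adjusted p = 0.0512 by limma), without the filter on low values (0.0922), with quantile normalization (0.183), without the variance trend (0.181), and without sgNC sample 1 (0.188), sgNC sample 2 (0.134) or sgPIKFYVE-1 sample 1 (0.228). Whether the responses to knockdown and to apilimod differ was not tested, because the tables were normalized separately.

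ELOVL5 (ENSG00000012660.14, chr6:53267398-53349179), the elongase of polyunsaturated fatty acids, was the single member that rose in all 3 comparisons with a control. It was at 146 and 151 CPM with sgNC and 194 and 214 CPM with sgPIKFYVE-1 (log2 fold change 0.45, adjusted p = 3.27e-06 by limma). The DMSO samples were at 159 and 167 CPM, those with apilimod at 286 and 307 CPM (log2 fold change 0.86, adjusted p = 9.34e-07), and with Torin-1 at 195 and 224 CPM (log2 fold change 0.35, adjusted p = 9.36e-04). Both Torin-1 samples lay above both DMSO samples and below both apilimod samples. The rise with Torin-1 kept its call in all 12 alternative fits, with log2 values from 0.25 to 0.45. As ELOVL6 fell there, the ratio of ELOVL6 to ELOVL5 went from 0.644 and 0.553 with DMSO to 0.242 and 0.230 with Torin-1, and was 0.847 and 0.782 with apilimod. With sgPIKFYVE-1 it was 0.578 and 0.490, below the 0.660 and 0.646 with sgNC.

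ELOVL1 (ENSG00000066322.15, chr1:43363397-43368074), which makes very long saturated and monounsaturated chains used in sphingolipids, changed modestly. It was at 74.0 and 73.9 CPM with sgNC and 92.9 and 96.5 CPM with sgPIKFYVE-1 (log2 fold change 0.35, adjusted p = 2.38e-04 by limma). In the drug table it was at 92.1 and 89.6 CPM with DMSO, with apilimod at 127 and 119 CPM (log2 fold change 0.43, adjusted p = 8.40e-04), and with Torin-1 at 68.2 and 63.6 CPM (log2 fold change -0.46, adjusted p = 1.42e-04). In each comparison all treated samples lay on the side of the fold change.

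HSD17B12 (ENSG00000149084.13, chr11:43680558-43856617), the ketoacyl-CoA reductase shared by all elongases, rose with both PIKfyve perturbations and showed no detectable change with Torin-1. It was at 215 and 217 CPM with sgNC and 293 and 308 CPM with sgPIKFYVE-1 (log2 fold change 0.48, adjusted p = 2.28e-07 by limma). With DMSO it was at 168 and 179 CPM and with apilimod at 365 and 415 CPM, 2.25-fold higher (log2 fold change 1.16, adjusted p = 5.07e-08). Torin-1 samples were at 168 and 189 CPM and overlapped DMSO. Their log2 difference was 0.042 (95% interval -0.11 to 0.19, adjusted p = 0.676), an interval that excludes a fall like that of ELOVL6; its sign turned, to -0.0034 without DMSO sample 1 and -0.042 without Torin-1 sample 2. The antisense gene AC087521.2 overlaps 948 of its exonic bases in GENCODE 29.

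HACD3 (ENSG00000074696.13, chr15:65530418-65578352), a hydroxyacyl-CoA dehydratase of the cycle, was the member with the smallest response to apilimod. It was at 268 and 266 CPM with DMSO and 271 and 285 CPM with apilimod, a log2 difference of 0.056 (95% interval -0.055 to 0.17, adjusted p = 0.606 by limma), which was -0.0015 with quantile normalization. With Torin-1 it was at 204 and 215 CPM (log2 fold change -0.35, adjusted p = 1.26e-04). The knockdown raised it from 168 and 178 CPM to 213 and 209 CPM (log2 fold change 0.29, adjusted p = 2.03e-04), a call lost without the variance trend (adjusted p = 0.0522 by limma).

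TECR (ENSG00000099797.15, chr19:14517085-14565980), the enoyl-CoA reductase that closes the cycle, fell clearly with Torin-1 and was borderline elsewhere. It was at 102 and 92.9 CPM with DMSO and 64.6 and 58.3 CPM with Torin-1 (log2 fold change -0.66, adjusted p = 1.37e-05 by limma). With apilimod it was at 117 and 112 CPM, a log2 difference of 0.24 (95% interval 0.075 to 0.40) that did not pass (adjusted p = 0.0711) but did with only the 4 samples compared (adjusted p = 0.0378) and without Torin-1 sample 1 (0.0439) or sample 2 (0.0421). With sgNC it was at 78.8 and 79.0 CPM and with sgPIKFYVE-1 at 104 and 87.7 CPM, so that both knockdown samples were higher but far apart. The log2 fold change was 0.27 (adjusted p = 0.00677 by limma), and the call was lost without sgPIKFYVE-1 sample 1 (log2 0.15, adjusted p = 0.123), without the filter on low values (adjusted p = 0.0858) and without the variance trend (0.126). TECR shares 211 exonic bases with DNAJB1 on the other strand, which was between 53.3 and 137 CPM.

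Set directly against each other, apilimod gave higher levels than Torin-1 for 9 of the 10 members, where 26.2% of 13520 genes were higher and 20.5% lower with apilimod. That balance over all genes turned with quantile normalization, from 3547 higher and 2765 lower to 3009 higher and 3232 lower. The log2 difference was 4.67 for SCD (SE 0.039, adjusted p = 5.15e-18 by limma), the second highest of all genes tested, 3.16 for FADS2 and 2.07 for FADS1. Among elongation genes it was 2.27 for ELOVL6, 1.12 for HSD17B12, 0.89 for both ELOVL1 and TECR, 0.50 for ELOVL5 and 0.41 for HACD3. SCD5 did not pass, with 0.11 (95% interval -0.34 to 0.57, adjusted p = 0.683). The median over the members was 1.01, against 0.020 over all genes. The contrast therefore ranged from over 4 log2 units at SCD to under 1 at 4 of the 6 elongation genes.

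Other genes of the pathway were read from 7 lists with 47 genes, of which 39 were tested in the knockdown table and 40 in the drug table. Over the lists together, 16 rose and 6 fell with sgPIKFYVE-1, 14 rose and none fell with apilimod, and 2 rose and 17 fell with Torin-1; the tool was limma throughout. Over all genes tested the shares that rose and fell were 21.6% and 20.9% with sgPIKFYVE-1, 5.75% and 2.79% with apilimod, and 16.6% and 21.8% with Torin-1. The falls with sgPIKFYVE-1 and the rises with Torin-1 were thus below the share over all genes, and in both comparisons a single call in a list that follows, apart from the 2 other desaturases tested, lies near or under it. The medians of the pathway genes were 0.16, 0.14 and -0.22. No test compared the lists with the members or with each other.

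Of the 4 desaturases outside the 10 members, 2 passed the filter. FADS3, whose product has a desaturase activity on sphingoid bases, fell with sgPIKFYVE-1 (log2 fold change -0.36), and DEGS1, the ceramide desaturase, fell with Torin-1 (-0.52); none passed with apilimod. Of the other elongation enzymes, 3 of 5 rose with sgPIKFYVE-1: ELOVL4 by 0.89, ELOVL7 by 0.79 and HACD2 by 0.38. ELOVL7, which acts on saturated very long chains, was the single one of 7 to rise with apilimod (0.58), and HACD2 the single one of 7 to fall with Torin-1 (-0.22). The calls of FADS3 with sgPIKFYVE-1 and of HACD2 with Torin-1 were weak: without sgNC sample 1 the adjusted p by limma of FADS3 was 0.285, without sgPIKFYVE-1 sample 2 it was 0.0900, and without either DMSO sample or Torin-1 sample 1 that of HACD2 lay between 0.0625 and 0.196.

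RNA of CYB5B, the cytochrome b5 of the outer mitochondrial membrane, changed most among the 6 genes listed for electron supply to desaturases. It was at 88.1 and 93.5 CPM with sgNC, 157 and 152 CPM with sgPIKFYVE-1, 179 and 183 CPM with DMSO, 385 and 394 CPM with apilimod, and 107 and 113 CPM with Torin-1. Its log2 fold changes of 0.76, 1.10 and -0.71 (adjusted p = 6.03e-09, 4.03e-09 and 2.78e-07 by limma) had the directions of SCD. CYB5A, the cytochrome b5 of the endoplasmic reticulum that serves SCD, fell with sgPIKFYVE-1 (-0.29) and with Torin-1 (-0.40). With apilimod CYB5A did not pass (0.012). CYB5R3 also fell with Torin-1 (-0.29, adjusted p = 0.00617 by limma). Of the 6 genes in this list 1 rose and 1 fell with sgPIKFYVE-1, both smaller shares than over all genes, 1 rose with apilimod and 4 fell with Torin-1.

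In substrate supply, 5 of 7 genes rose with sgPIKFYVE-1, 5 of 7 rose with apilimod and 4 of 7 fell with Torin-1. ACSS2, which makes acetyl-CoA from acetate, went from 12.4 and 10.5 CPM with DMSO to 148 and 133 CPM with apilimod, the highest log2 fold change of all genes tested in that comparison (3.51). With Torin-1 it was at 10.1 and 9.14 CPM, a log2 difference of -0.23 that did not pass. FASN, the fatty acid synthase, changed by 1.01, 2.19 and -1.48 in the 3 comparisons, and ACLY, which makes acetyl-CoA from citrate, by 0.81, 1.44 and -0.72. ME1, a source of NADPH, changed by 0.77, 0.72 and -0.81.

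Of the 7 genes in the SREBP system, 3 rose and 1 fell with sgPIKFYVE-1, 3 rose with apilimod, and 1 rose and 3 fell with Torin-1. INSIG1, which retains SREBP in the endoplasmic reticulum and is itself an SREBP target, changed by 1.37, 2.36 and -2.18. SREBF1, the SREBP gene linked most to fatty acid synthesis, was at 113 and 99.9 CPM with sgNC, 140 and 125 CPM with sgPIKFYVE-1, 88.7 and 98.9 CPM with DMSO, 143 and 131 CPM with apilimod, and 46.0 and 36.8 CPM with Torin-1. These SREBF1 levels had the directions of SCD with smaller changes, of 0.31, 0.54 and -1.17 on the log2 scale. Without the filter on low values or the variance trend, SREBF1 did not pass with sgPIKFYVE-1 (adjusted p = 0.0573 and 0.0968 by limma) or with apilimod (0.0699 and 0.103). INSIG2 went against the others and fell with sgPIKFYVE-1 (log2 fold change -0.33, adjusted p = 0.0050 by limma). That value was -0.29 without sgNC sample 2, where the call was lost. SREBF2, the SREBP gene linked most to cholesterol synthesis, rose with sgPIKFYVE-1 (log2 fold change 0.16) and apilimod (0.72) and fell with Torin-1 (-0.42). Its call with sgPIKFYVE-1 was lost without the filter or the variance trend (adjusted p = 0.087 and 0.195 by limma). The call was also lost with quantile normalization (adjusted p = 0.221 by limma) and without sgNC sample 2 or sgPIKFYVE-1 sample 1.

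Among acyl-CoA synthetases and acyltransferases, which activate fatty acids or place them in phospholipids, 4 of 6 rose and 2 fell with sgPIKFYVE-1, 3 rose with apilimod, and 1 rose and 4 fell with Torin-1. ACSL1 rose by 0.99 and 1.66 with sgPIKFYVE-1 and apilimod, and ACSL4, which prefers arachidonate, by 0.62 and 1.11. With Torin-1 they fell (-0.21 and -0.32). Neither fall passed without the variance trend (adjusted p = 0.0805 and 0.0533 by limma). The fall of ACSL1 was -0.19 without DMSO sample 2, where its call was lost. LPCAT3, which puts polyunsaturated chains into phospholipids, rose with sgPIKFYVE-1 (0.38) and apilimod (0.53) and fell with Torin-1 (-0.59). By contrast, ACSL6 fell with sgPIKFYVE-1 (-0.77) and rose with Torin-1 (0.55). MBOAT7, the other acyltransferase tested, also fell with sgPIKFYVE-1 (-0.59, adjusted p = 5.03e-04 by limma). ACSL3 fell with Torin-1 (-0.38). Without the filter on low values or the variance trend, LPCAT3 did not pass with apilimod (adjusted p = 0.0790 and 0.0991 by limma). Nor did ACSL6 with Torin-1 (adjusted p = 0.0888 and 0.079 by limma). The call of LPCAT3 was also lost without DMSO sample 2 or apilimod sample 1. That of ACSL6 was also lost without DMSO sample 1 or Torin-1 sample 1. Other lipogenic regulators were mostly uncalled. MLXIPL, the carbohydrate-response factor ChREBP, was the exception, and its directions parted: it was at 5.56 and 6.58 CPM with sgNC and 3.07 and 4.43 CPM with sgPIKFYVE-1 (log2 fold change -0.59, adjusted p = 0.0407 by limma), but at 2.54 and 2.41 CPM with DMSO and 9.32 and 10.3 CPM with apilimod (1.63, adjusted p = 7.97e-05). The fall with sgPIKFYVE-1 did not pass without the filter or the variance trend (adjusted p = 0.157 and 0.0704 by limma). With quantile normalization it did not pass either (adjusted p = 0.118 by limma). Its call was also lost without sgNC sample 1, sgNC sample 2 or sgPIKFYVE-1 sample 1. The difference between these 2 changes was not tested.

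**Figure D5:**
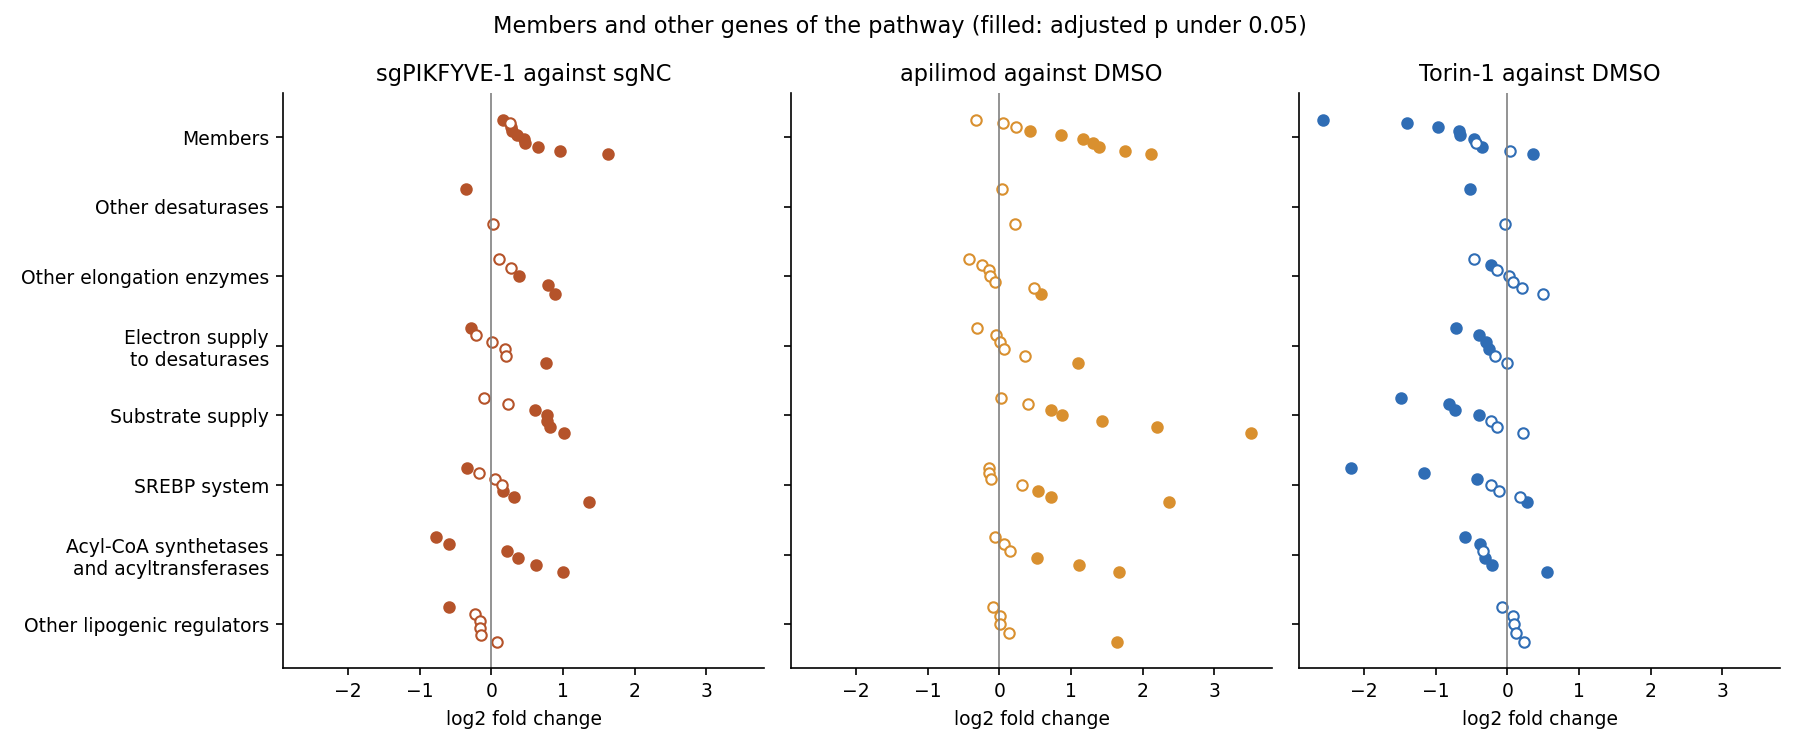
Log2 fold change on log2(CPM + 1) (horizontal axes) of the members and of each list of other pathway genes (rows), one point per gene, for the 3 comparisons with a control; filled points have an adjusted p under 0.05 by limma. ACSS2 lies farthest right with apilimod at 3.51, and most points of the other lipogenic regulators are open and near 0.

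The genes whose values lay closest to those of SCD over the 10 samples were sought among the 13235 genes that passed the filter in both tables, by the root mean square difference of log2 values after subtracting each table's control mean. They were INSIG1 (0.245), DHCR7, a reductase of cholesterol synthesis (0.357), LIPG, an endothelial lipase (0.365), PLA2G3, a secreted phospholipase (0.513), and MSMO1, a sterol oxidase of cholesterol synthesis (0.521). The nearest member was FADS2 at 0.623, followed by FADS1 and then by ELOVL6 at 1.04. SCD5 was the farthest of the members at 1.58 and ELOVL5 the next at 1.52. The samples share their tables' controls, and no test was made.

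Levels were compared between genes per kilobase of the longest GENCODE 29 transcript. In sgNC samples SCD stood highest at 179 ± 1.16 CPM per kilobase (SD, n = 2), followed by FADS2 at 72.3, HACD3 at 53.5, HSD17B12 at 50.3, ELOVL5 at 48.2, ELOVL1 at 45.5, FADS1 at 29.8, TECR at 27.2, ELOVL6 at 15.0 and SCD5 at 3.44 ± 0.229. With DMSO SCD was again highest at 157 ± 2.34 (SD, n = 2) and SCD5 lowest at 2.60 ± 0.400, with HACD3 at 82.8 and FADS2 at 66.8 next to SCD. Neighbours in either order did not overlap between their 2 samples, but the order between the extremes depended on the length used. With the union of exons, ELOVL5 was second in both controls, at 38.9 and 42.8 CPM per kilobase, and SCD and SCD5 kept the first and last place. The pseudogenes SCDP1, TECRP1, TECRP2 and FADS2P1 were at or under 0.216 CPM in every sample.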

How the data were processed

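RNA-seq of QGP-1 cells covered 10 samples in 5 groups of 2, in a knockdown table of 4 samples and a drug table of 6. The labels describe depletion of ribosomal RNA and the methods oligo(dT) selection. The authors trimmed reads with Trimmomatic, quantified and summed them to genes and scaled them by the TMM method. The deposited table of each experiment thus holds a normalized signal (CPM scale, scaled per table), and samples sum to between 972493 and 1024332. The build is hg38 per the submitters' processing notes; the quantifier and annotation are not given in the sources used here. The planned design assumed plain CPM, and its test on a log scale was kept. Of low values, 64.7% to 68.3% were whole reads within 0.01, so counts could not be recovered and count models were not used.

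Filtering kept genes whose mean over a table's samples reached 1 CPM. Limma 3.58.1, run in R 4.3.3, tested log2(CPM + 1) (trend, two-sided, Benjamini-Hochberg adjustment over all genes, threshold 0.05), one fit per table, after a check on simulated data. Fold changes of weakly expressed genes are understated by the pseudocount of 1. The members and lists were chosen with earlier results of these data known; 1 gene of a list is not reported here. Named are all members, PIKFYVE, pseudogene or overlapping entries, and the 5 genes closest to SCD. Per list, up to 3 called genes with the largest change in each comparison with a control are named, and MBOAT7 was added afterwards. Values of a named gene in other comparisons are also given and need not rank among the largest there. Positions are from GENCODE 29 on GRCh38. Same-numbered replicates were treated as unpaired. Their deviations from the group means correlated weakly, at 0.037 in the knockdown table and between 0.043 and 0.10 in the drug table. Whether they shared a batch was not tested. Alternatives were a pseudocount of 0.1, no filter, no variance trend, a replicate block, quantile normalization, fits on the compared samples alone, the exon union as length, and each sample left out.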

Additional observations from a re-analysis of the deposited data

How the results depend on the processing

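Over 450 alternative values of the members' fold changes, 430 kept their direction and side of the threshold, 11 lost a call, 5 gained one and 4 changed sign. With no filter, no variance trend or the replicate block, the fold change was fixed by design and only the call could change. The same held on the compared samples alone and without a sample of the drug-table group not compared. The sign changes were HACD3 with apilimod (-0.0015 with quantile normalization), HSD17B12 with Torin-1 (-0.0034 without DMSO sample 1, and -0.042 to 0.13 over the samples left out, the lowest without Torin-1 sample 2) and SCD5 between the drugs (-0.20 without Torin-1 sample 1 to 0.43 without sample 2), none of which had passed. The lost calls were ELOVL6, TECR and HACD3 with sgPIKFYVE-1 and the gained ones TECR with apilimod and SCD5 with Torin-1. For PIKFYVE and the pathway genes called, set against the same alternatives after seeing the data, 856 of 927 values kept their call and 71 lost it, and no count over the lists moved by more than 1.5 times. Genes called over the whole table with sgPIKFYVE-1 numbered 3709 without the variance trend and 5772 with it. For apilimod, 1155 genes were called, against 565 without the filter, 466 without the variance trend and 597 to 1310 with each sample left out (656 without DMSO sample 1, 597 without DMSO sample 2 and 689 without apilimod sample 1); quantile normalization split them into 658 higher and 536 lower in place of 778 and 377. With the replicate number as a block, although samples were treated as unpaired, 1756 genes were called for apilimod, and TECR with apilimod passed (adjusted p = 0.0116 by limma). No other member's call changed under the block. The block also raised the genes called from 5772 to 6111 with sgPIKFYVE-1, 5202 to 5903 with Torin-1 and 6312 to 6960 between the drugs. By level per kilobase, 2 of the 10 members kept their rank in sgNC samples with the exon union, and 7 in DMSO samples. The cause of these shifts was not tested. A sample left out leaves a group with 1 sample, assumed to vary like the others.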
